A study of Rattus norvegicus with 18 samples.

Results

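Histones are the proteins around which DNA is wound. The core histones H2A, H2B, H3 and H4 form the spool, and the linker histone H1 binds the DNA where it enters and leaves. Most of their genes lie in a few clusters, are short, lack introns and are transcribed mainly while a cell copies its DNA, and their messengers end in a stem-loop where other messengers carry a poly(A) tail. The libraries examined here were depleted of ribosomal RNA and not selected for poly(A), so such messengers could be sequenced. Muscle fibres no longer divide, and a muscle sample also holds cells that can. In such bulk samples, fewer cells of a type and less RNA per cell cannot be told apart.

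The genes described here lie in a window of rat chromosome 17, between 43.0 and 45.5 Mb in the Rnor_6.0 assembly, where a major histone cluster lies. They were chosen by position and structure, with earlier results of these data known. A gene was included when its annotation had a single exon of 300 to 800 bases starting in this window. Of the 32883 genes in the deposited table, 40 met this rule, and each of the 40 had at least 1 count. The table gives Ensembl identifiers without symbols, so whether each gene is a histone gene was not tested, and the genes are described by identifier, position and length.

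The libraries came from the gastrocnemius, a calf muscle, of male Brown Norway rats (BN/SsNOlaHSD) in 3 groups of 6. All rats were fed ad libitum (AL) up to 2 months of age. Young AL rats were killed at 6 months and aged AL rats at 28 months, and aged CR rats received caloric restriction at 55% of the AL intake from 2 months until they were killed at 28 months. Rats 1 to 6 were young AL, rats 7 to 12 aged AL and rats 13 to 15 aged CR, and the remaining 3 aged CR libraries could be tied to their group but not to a rat and are called library 8826, library 8827 and library 8828. The library numbers of each group form a block of their own, so handling and group cannot be told apart. The muscle identity of the samples was not analysed here, because no symbols could be attached to the identifiers.

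Total counts per library ranged from 17335401 to 27432767. Along the first principal component over all 14646 genes tested, which held 30.4% of the variance, rat 8 (aged AL) scored 108.9 and library 8828 (aged CR) 75.5, and the next highest score was 8.25. Rat 14 (aged CR) had 146 genes, rat 8 had 69 and rat 5 (young AL) had 43 at 8 or more times their level in every other library with at least 10 counts, against 0 or 1 gene in each of the other libraries. Values are therefore also given without these libraries where they bear on a result. Of the genes so far above every other library, 1 of those in rat 5 and 0 of those in rat 8 or rat 14 belonged to the 40.

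The 40 genes fell into 2 blocks and 1 outlying gene. The first block, at chr17:43422454-43821536, held 21 genes (9 on the plus strand and 12 on the minus strand) and 88.3% of the counts of the 40. The second block, at chr17:44519860-44841382, held 18 genes, 9 on each strand, and 11.7% of the counts. The outlying gene, ENSRNOG00000031902 at chr17:45286135-45286923, had 15 counts in all and was listed at 0 in each aged AL library.

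Lengths repeated among the genes. Of the 40, 6 were 312 bases long, 5 were 381, 9 were 393, 10 were 411, and 4 were between 639 and 669 bases, leaving 6 of other lengths. As background, these are in turn the coding lengths of typical H4, H2B, H2A, H3 and H1 genes. The match of length was not followed by any test of sequence, and a gene of a given length need not belong to that family.

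Levels per length were highest among the 312-base genes and the 639- to 669-base genes. Levels are given as CPM, which are counts scaled to a common library size with edgeR's TMM factors, or as RPKM. The latter are CPM divided by gene length in kilobases, to put genes of different length on one scale. Whether this division is even-handed among genes as short as these was not tested. Averaged over the 18 libraries in RPKM, the 312-base genes had a median of 45.9 (range 5.56 to 119). The 639- to 669-base genes had a median of 21.4 RPKM (range 5.48 to 183). These 10 genes took 34.03% and 53.3% of the counts of the 40.

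The genes of the lengths in between were lower. The median level was 4.53 RPKM in the 411-base genes (range 1.11 to 8.54), 3.66 in the 381-base genes (range 0.695 to 9.72) and 1.24 in the 393-base genes (range 0.226 to 3.66). Of the 9 genes of 393 bases, 8 were overlapped by a shorter gene on the other strand, as was 1 gene of another length. These overlapping genes were all listed at 0 counts, and the overlap covered 34.9% to 36.7% of the gene beneath. Reads were assigned without using strand, and reads falling on 2 genes were left uncounted by the settings in the file header, so the level of these 9 genes may be understated. How far this set their rank was not tested.

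**Figure D1:**
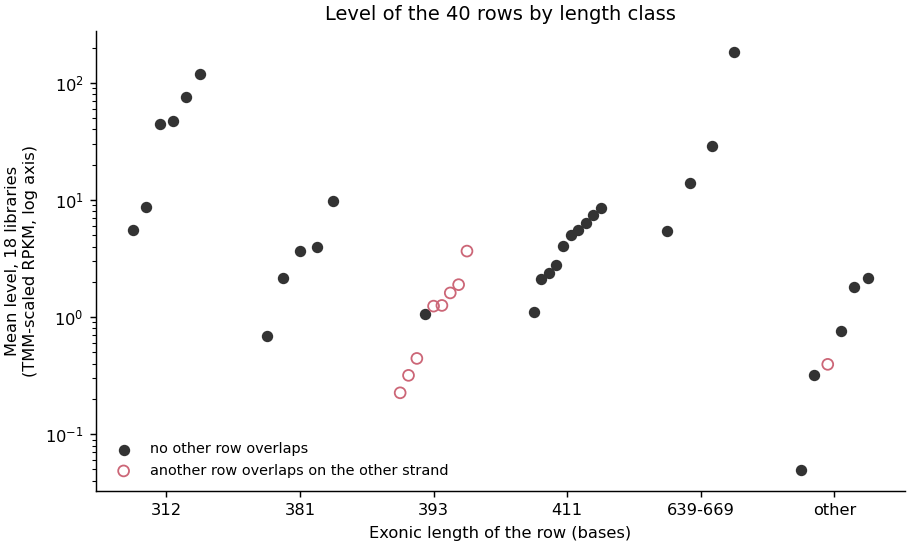
Mean level of each of the 40 genes over the 18 libraries (TMM-scaled RPKM, log axis) by length class in bases; each point is 1 gene, and open red points are genes overlapped by another gene on the other strand. The 312-base genes span 5.56 to 119 RPKM and the 639- to 669-base genes 5.48 to 183, whereas no 393-base gene exceeds 3.66.

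Counts were concentrated in a few genes. ENSRNOG00000054978, a 639-base gene at chr17:43639749-43640387 on the minus strand, alone took 45491 counts, or 41.7% of the total of the 40. It was followed by ENSRNOG00000051891 (312 bases) with 14571 counts and ENSRNOG00000046636 (312 bases) with 9356. With ENSRNOG00000047459 (660 bases, 7485 counts), ENSRNOG00000050933 (312 bases, 5763 counts), ENSRNOG00000058444 (312 bases, 5572 counts) and ENSRNOG00000048264 (663 bases, 3656 counts), the leading 7 genes held 84.3%. The next gene, ENSRNOG00000059949 (381 bases), had 1517 counts. The division into 7 and 33 genes used below was made after these counts were seen. Copies of a histone gene can be nearly identical, and reads that aligned to several places were not counted. The split of counts among genes of the same length is therefore uncertain. The level of a whole length class may also be understated, and how far this set the order of the classes was not tested.

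A total of 31 of the 40 passed the filter on low counts (77.5%), compared with 17 of the 51 other genes of the window that had any count (33.3%) and with 182 of 1198 single-exon genes of the same length range elsewhere that had any count (15.2%). Median levels were 3.22, 0.131 and 0.0902 RPKM for the 3 sets in this order. These values are a description of the sets.

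The summed level of the 40 genes was then compared among the groups in CPM. In young AL rats the lowest, median and highest sums were 215, 236 and 306 CPM. In aged AL rats they were 191, 325 and 400, and in aged CR rats 234, 259 and 307. The groups overlapped, with 4 of 6 aged AL libraries above the highest young library, and rat 7 below the lowest.

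Means were 247 ± 36.4 CPM in young AL, 318 ± 71.1 in aged AL and 266 ± 27.8 in aged CR rats (SD, n = 6). The log2 ratio of means was 0.36 for aged AL to young AL, 0.10 for aged CR to young AL and -0.26 for aged CR to aged AL. No test was made on the sum. The aged AL to young AL ratio was 0.55 when libraries were scaled by total count alone, rat 8 having the highest TMM factor (1.44).

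Both extremes of the aged AL group came from a single rat each. Over the leading 7 genes, the lowest, median and highest sums were 180, 207 and 260 CPM in young AL, 156, 278 and 305 in aged AL, and 208, 217 and 262 in aged CR rats. Here rat 7 was the lowest of all libraries, and the other 5 aged AL libraries lay above the highest young library. Over the other 33 genes the sums were 22.4, 35.0 and 46.4 CPM in young AL, 28.7, 38.1 and 133 in aged AL, and 25.9, 37.2 and 59.3 in aged CR rats. In these 33 genes rat 8 held the highest aged AL sum, 133 CPM, with rat 11 next at 57.7, and rat 14 held the highest aged CR sum.

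**Figure D2:**
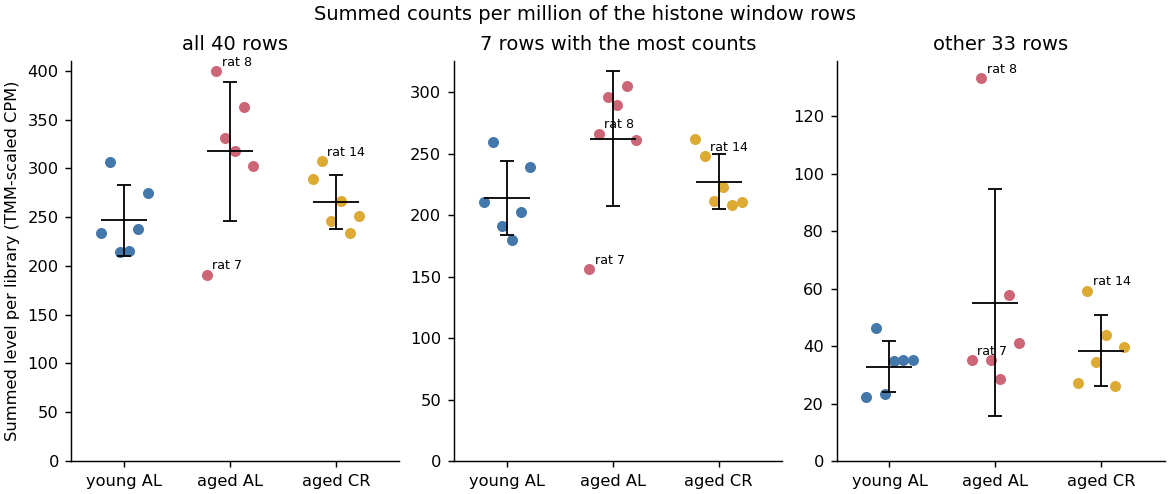
Summed level per library (TMM-scaled CPM, axes from 0) of all 40 genes, of the 7 with the most counts and of the other 33; points are libraries, horizontal bars are group means and error bars SD (n = 6). Rat 7 is the lowest library in the first 2 panels, and rat 8 stands at 133 CPM in the last against 57.7 for the next aged AL library.

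By length class, the 639- to 669-base genes summed to 128 ± 21.9 CPM in young AL, 171 ± 43.9 in aged AL and 147 ± 20.8 in aged CR rats (SD, n = 6). The 312-base genes summed to 91.8 ± 14.8, 102 ± 25.2 and 88.0 ± 5.17 CPM in the same order. The 411-base genes summed to 15.01 ± 4.33, 23.4 ± 14.8 and 17.4 ± 4.68 CPM. Their aged AL mean included rat 8 at 52.6 CPM, with rat 11 next at 23.8. The ranges of the groups overlapped in these classes and in the 381- and 393-base classes.

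By position, the first block summed to 219 ± 30.7 CPM in young AL, 278 ± 57.5 in aged AL and 238 ± 25.8 in aged CR rats (SD, n = 6). The second block summed to 27.6 ± 7.49, 39.8 ± 24.3 and 27.7 ± 6.63 CPM. In the first block 5 aged AL libraries lay above the highest young library. In the second block 1 did, rat 8 at 88.7 CPM, with rat 11 next at 35.8. The 9 genes that did not pass the filter summed to 2.43 ± 2.90, 2.12 ± 1.55 and 1.14 ± 0.525 CPM. Of these young libraries rat 5 had 8.25 CPM, and the other 5 had 1.26 ± 0.576 (SD, n = 5). The most counted of these 9 were ENSRNOG00000053155 (411 bases, 192 counts), ENSRNOG00000016865 (470 bases, 149), ENSRNOG00000058187 (381 bases, 106), ENSRNOG00000061863 (745 bases, 97) and ENSRNOG00000051758 (393 bases, 70).

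Ageing under AL feeding was examined first. Of the 31 genes tested, 0 were called by edgeR's quasi-likelihood test (Benjamini-Hochberg adjusted p of at most 0.05 over all genes tested and a change of at least 1.5-fold), where 3.39% of all genes tested were called. At an unadjusted p under 0.05 there were 13, each with the higher mean in aged AL rats, where 11.6% of all genes tested were higher at this limit. DESeq2 called 1, ENSRNOG00000046144 (3.33% of all genes with a count). Of the 31, 29 had a positive log2 fold change (51.0% of all genes tested), with a median of 0.79 against 0.01 over all genes tested. A gene can pass the filter through the group where it is high, and without the filter the median over the 40 genes was also 0.79.

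The number of genes at an unadjusted p under 0.05 and the median moved with rat 8. Without it, 3 genes were at an unadjusted p under 0.05 in edgeR's quasi-likelihood test (9.93% of all genes tested were higher at this limit) and the median log2 fold change fell to 0.33. Without rat 8 and library 8828 there were 2 (11.3%). Without rats 5, 8 and 14 and library 8828 there were also 2 (9.80%) and the median was 0.28. Under both settings the 2 were ENSRNOG00000054978 and ENSRNOG00000046144. Leaving out rat 1 or rat 3, both young, gave 5 and 7 genes. With rat 8 alone left out, ENSRNOG00000051891 and ENSRNOG00000049198 stayed negative, and ENSRNOG00000046434, ENSRNOG00000058444 and ENSRNOG00000058437 turned negative. All other genes of the 31 tested stayed positive, some of them by less than their SE.

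ENSRNOG00000054978, the most abundant, had 66.9, 103 and 130 CPM as lowest, median and highest in young AL rats. In aged AL rats it had 76.7, 152 and 173, and in aged CR rats 93.4, 112 and 138. The groups overlapped: rat 7 (76.7) and rat 8 lay within the young range, and the other 4 aged AL libraries lay above it. The log2 fold change of aged AL to young AL was 0.43 (SE 0.18, adjusted p = 0.177, edgeR's quasi-likelihood test), and it was 0.50 without rat 8 (adjusted p = 0.121). Those of aged CR to young AL and to aged AL were 0.16 and -0.27.

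ENSRNOG00000046144, a 411-base gene starting at 43616247 on the plus strand, had 0.388, 0.496 and 1.08 CPM in young AL, 0.565, 1.39 and 4.91 in aged AL, and 0.336, 0.780 and 2.51 in aged CR rats. Rat 8 held the aged AL maximum and rat 14 the aged CR maximum, and the groups overlapped. The log2 fold change of aged AL to young AL was 1.63 (SE 0.53, adjusted p = 0.0821, edgeR's quasi-likelihood test). By DESeq2 it was 1.64 (adjusted p = 0.0328), which is the call named above. Without rat 8 it was 1.01 (edgeR adjusted p = 0.209).

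Among the 312-base genes, 5 of 6 had a positive log2 fold change in aged AL rats. The exception was ENSRNOG00000051891, the most abundant of them, at -0.18 (SE 0.14), with medians of 40.9 CPM in young AL and 37.2 in aged AL rats. The second, ENSRNOG00000046636, had a median of 20.8 CPM in young AL and 26.8 in aged AL rats and a log2 fold change of 0.31 (SE 0.14). Neither was called.

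The least abundant 312-base gene, ENSRNOG00000048215, starts at 43617247 on the plus strand, next to ENSRNOG00000046144. It had 0.659, 0.835 and 1.45 CPM in young AL, 0.735, 1.44 and 5.18 in aged AL, and 0.671, 2.07 and 2.74 in aged CR rats. The groups overlapped, with 3 aged AL libraries within the young range and 3 above it, and rat 8 was highest. Its log2 fold change of aged AL to young AL was 1.30 (SE 0.46, adjusted p = 0.107, edgeR's quasi-likelihood test), and that of aged CR to young AL was 0.96 (SE 0.46). Without rat 8 these were 0.91 and 0.97. ENSRNOG00000057690, a 312-base gene of the second block, had 1.08, 1.72 and 3.39 CPM in young AL and 1.68, 2.90 and 10.5 in aged AL rats, with a log2 fold change of 0.98 (SE 0.41), or 0.36 (SE 0.30) without rat 8. Its highest library was rat 8 as well, and the other 5 aged AL libraries lay within the young range.

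In the 411-base genes, 8 of the 9 tested had a positive log2 fold change and 5 an unadjusted p under 0.05. The largest after ENSRNOG00000046144 was ENSRNOG00000045646 at 1.32 (SE 0.60), with 0.396 to 6.27 CPM in aged AL and 0.359 to 2.13 in young AL rats. ENSRNOG00000049198, the most abundant of this length, was at -0.01 (SE 0.29). In each of these 3 genes the aged AL maximum was rat 8. Without it, ENSRNOG00000045646 was at 0.77 (SE 0.56) and ENSRNOG00000049198 at -0.35 (SE 0.23).

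The 4 genes of 639 to 669 bases had log2 fold changes from 0.26 to 0.43, and the 4 genes of 381 bases tested from 0.52 to 1.17. The largest in the latter was ENSRNOG00000059949, with a median of 2.52 CPM in young AL and 3.86 in aged AL rats and 13.3 in rat 8. The 6 genes of 393 bases tested ranged from 0.73 to 1.63. Without rat 8 these 3 classes ranged from 0.017 to 0.50, from 0.11 to 0.68 and from -0.50 to 0.86. No gene of these lengths was called.

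Among genes of other lengths, ENSRNOG00000017175 (744 bases, starting at 43614101) had 0.242, 0.959 and 1.26 CPM in young AL, 0.860, 2.01 and 6.78 in aged AL, and 0.384, 1.36 and 2.78 in aged CR rats. The groups overlapped, with 2 aged AL libraries within the young range. The log2 fold change of aged AL to young AL was 1.48 (SE 0.53, adjusted p = 0.111, edgeR's quasi-likelihood test), and it was 0.88 (SE 0.47) without rat 8. It lies in the same stretch of the first block as ENSRNOG00000046144 and ENSRNOG00000048215, and in each of these 3 genes rat 8 was the highest library.

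**Figure D3:**
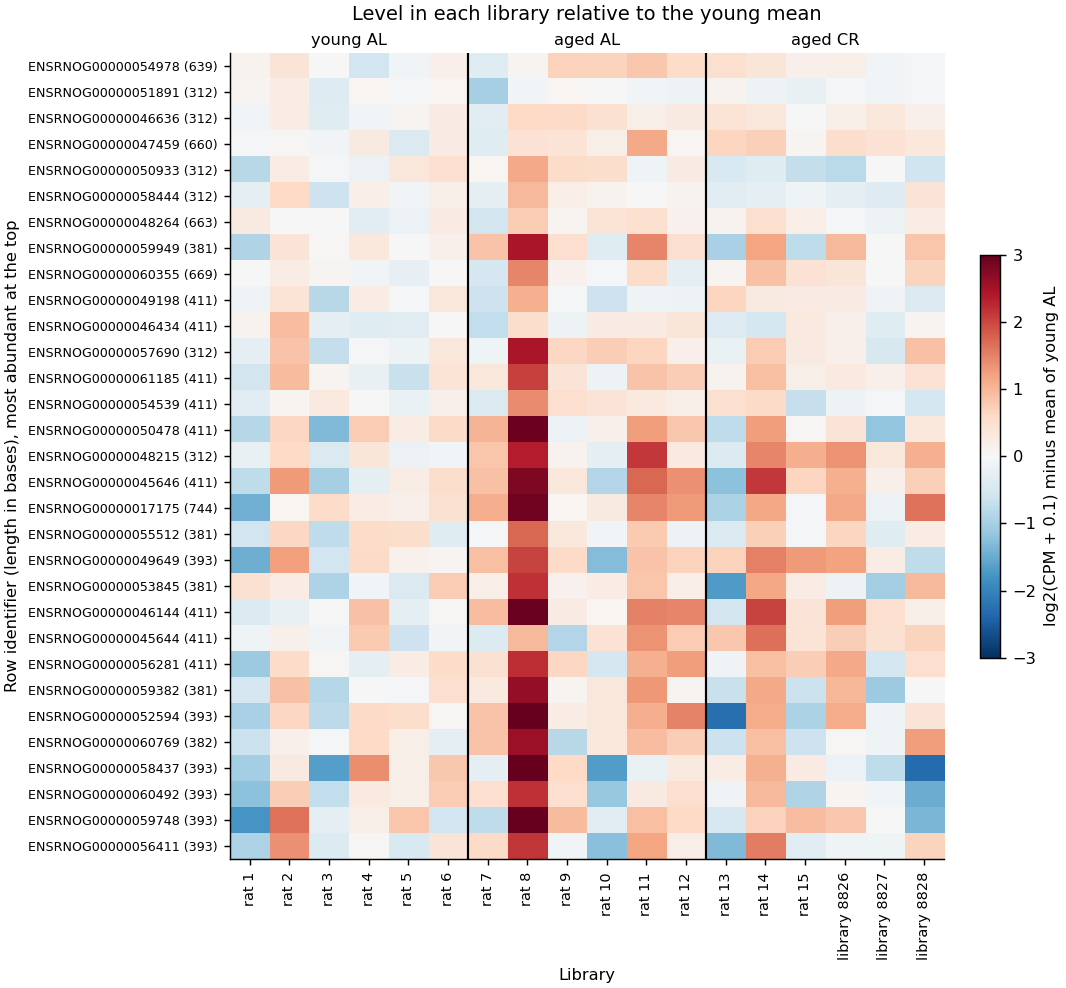
Level of the 31 genes that passed the filter (most abundant at the top, length in bases in brackets) in each of the 18 libraries, as log2(CPM + 0.1) minus the mean of the 6 young libraries; red is higher and blue lower, and the scale is cut at 3 in each direction. The column of rat 8 is the highest of all 18 libraries in 26 of the 31 genes.

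Rat 8 held the highest aged AL level in 27 of the 31 genes, and the highest of all 18 libraries in 26. Its log2 ratio to the median of the other 5 aged AL libraries, with 0.1 CPM added, had a median of 0.33 over the leading 7 genes and 1.83 over the other 24. Over all genes tested this median was 0.01. Of the 24 genes, 22 stood above a ratio of 1 on the log2 scale, and 0 of the leading 7 did, against 2124 of all 14646 genes tested (14.5%). Rat 14 was the highest aged CR library in 19 of the 31 genes and rat 2 the highest young library in 17. How often rats 8, 14 and 2 were highest over all genes tested was not examined. The part of rat 8's other differences in these values was not tested.

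Aged CR rats were then compared with young AL rats. These groups differed in both age and diet, which cannot be told apart without a young restricted group. edgeR's quasi-likelihood test called 0 of the 31, where 1.98% of all genes tested were called, and 3 had an unadjusted p under 0.05 (19.3% of all genes tested). The median log2 fold change was 0.16, and 24 of 31 were positive (50.7% of all genes tested). The 3 genes were ENSRNOG00000047459 (0.44, SE 0.19), ENSRNOG00000045644 (0.87, SE 0.38) and ENSRNOG00000050933 (-0.54, SE 0.22). Without rats 5, 8 and 14 and library 8828, 0 of 30 genes were at this limit (16% of all genes tested) and the median was -0.03. This comparison shares the young AL libraries with the one above.

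ENSRNOG00000047459, a 660-base gene starting at 43734461, had 11.3, 15.4 and 18.7 CPM in young AL rats. It had 11.9, 18.9 and 34.0 in aged AL and 16.2, 21.4 and 25.2 in aged CR rats. Among the aged CR libraries only rat 15, at 16.2 CPM, lay within the young range. The others lay above it, so the groups overlapped through rat 15. Its adjusted p for aged CR to young AL was 0.220 (edgeR's quasi-likelihood test), and its log2 fold change of aged AL to young AL was 0.37.

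ENSRNOG00000045644, a 411-base gene, had 0.381, 0.602 and 1.17 CPM in young AL, 0.304, 1.03 and 1.79 in aged AL, and 0.890, 1.11 and 2.24 in aged CR rats. Of the 6 aged CR libraries 4 lay inside the young range, and the highest, rat 14, stood apart from the others. Its adjusted p for aged CR to young AL was 0.224 (edgeR's quasi-likelihood test). The gene called between the aged groups, ENSRNOG00000050933, is described further on.

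DESeq2 called 1 gene lower in aged CR than in young AL rats (2.39% of all genes with a count). This was ENSRNOG00000016865 (470 bases, starting at 43423111), which did not pass the filter in edgeR. It had 102 counts in rat 5, a young library, where its level was 4.32 CPM, whereas the next highest library had 0.376. Its log2 fold change by DESeq2 was -3.60 (adjusted p = 0.0494), and edgeR without the filter gave -3.48 (adjusted p = 0.157). ENSRNOG00000061863 (745 bases) had 51 counts and 2.16 CPM in the same library, against 0.388 CPM in the next. ENSRNOG00000048122, a 393-base gene next to ENSRNOG00000016865 and named after its values were seen, was also highest there, at 15 counts. These genes were near the limit of counting elsewhere, since 3 counts correspond to 0.0981 to 0.180 CPM in these libraries.

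Restriction in aged rats was examined by comparing aged CR with aged AL. One gene, ENSRNOG00000050933, was called by edgeR's quasi-likelihood test and was lower in aged CR rats, so 1 of 31 was called where 1.38% of all genes tested were called in either direction and 0.546% were called lower. At an unadjusted p under 0.05 there were 3 genes, each lower (15.3% of all genes tested in either direction, 7.59% lower). The other two were ENSRNOG00000050478 (-1.24, SE 0.54) and ENSRNOG00000052594 (-1.46, SE 0.65). Without rat 8 they were at -0.51 and -0.68 and no longer at this limit, which ENSRNOG00000050933 (-0.74, SE 0.20) and ENSRNOG00000049198 (0.49, SE 0.23) then reached, in opposite directions. The median log2 fold change was -0.60 and 5 of 31 were positive (46.9% of all genes tested). Without rat 8 the median was -0.11, and ENSRNOG00000048215, ENSRNOG00000049649 and ENSRNOG00000058437 turned positive. Genes measured in the same libraries do not give independent signs, here or in the earlier comparisons. The aged AL libraries are those of the first comparison.

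ENSRNOG00000050933 is a 312-base gene at chr17:43821225-43821536 on the minus strand. In young AL rats it had 7.80, 14.9 and 19.9 CPM as lowest, median and highest. In aged AL rats it had 12.7, 18.4 and 30.9, and in aged CR rats 7.94, 9.73 and 13.8. The highest aged CR library, library 8827, lay above the lowest aged AL library, rat 11, so these groups overlapped, and the other 5 aged CR libraries lay below each aged AL library. Aged CR libraries also lay within the lower part of the young range.

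The log2 fold change of aged CR to aged AL in this gene was -0.94 (SE 0.22, adjusted p = 0.0370, edgeR's quasi-likelihood test), and DESeq2, which called 1.47% of all genes with a count, gave an adjusted p of 0.00393. Without rat 8 it was -0.74 and still called (adjusted p = 0.0462). It was not called without rats 5, 8 and 14 and library 8828 (-0.74, adjusted p = 0.113). The call was also lost when any of rat 9, rat 10, rat 12, rat 13, rat 14, rat 15 or library 8826 was left out, where its log2 fold change lay between -0.99 and -0.88 and its adjusted p between 0.0519 and 0.0991. Its log2 fold changes relative to young AL were 0.40 in aged AL and -0.54 in aged CR rats, neither called.

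**Figure D4:**
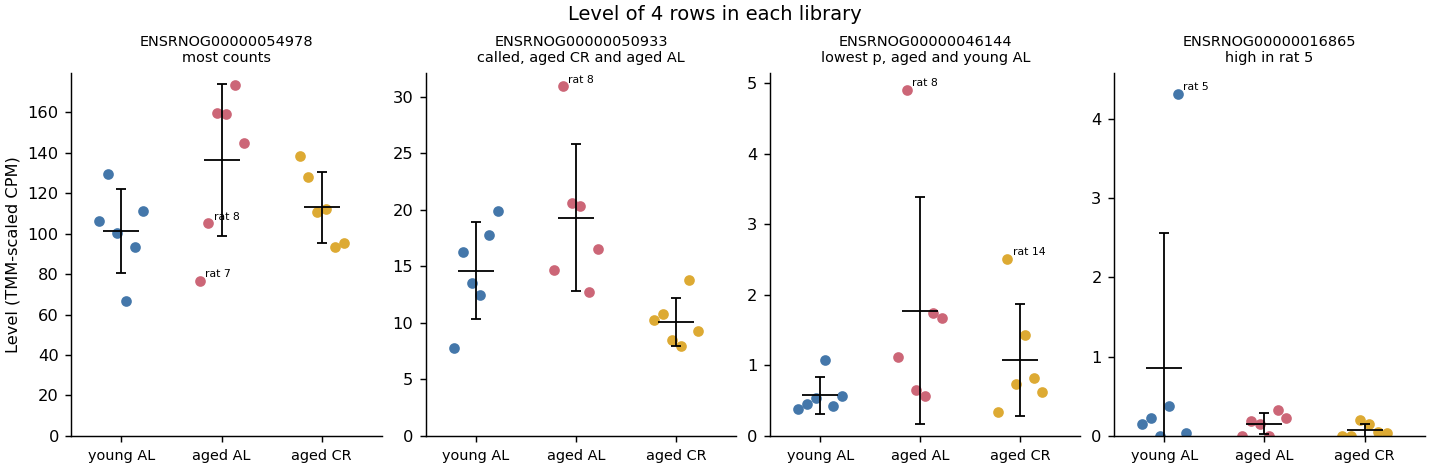
Level in each library (TMM-scaled CPM, axes from 0) of the gene with the most counts, the gene called between aged CR and aged AL rats, the gene called by DESeq2 between aged AL and young AL rats and a gene high in rat 5; horizontal bars are group means and error bars SD (n = 6). In ENSRNOG00000050933 the aged CR libraries lie between 7.94 and 13.8 CPM and the aged AL libraries between 12.7 and 30.9.

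The other 5 genes of 312 bases tested were not called in this comparison. ENSRNOG00000051891 and ENSRNOG00000046636 were at 0.10 (SE 0.14) and -0.08 (SE 0.14) in aged CR relative to aged AL rats. ENSRNOG00000058444, of the second block, was at -0.39 (SE 0.21), with medians of 14.4 CPM in aged AL and 11.0 in aged CR rats. ENSRNOG00000057690 was at -0.74 (SE 0.40) and ENSRNOG00000048215 at -0.34 (SE 0.44), and without rat 8 these 2 were at -0.12 and 0.06. Whether any of the 5 differs from ENSRNOG00000050933 in response was not tested.

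In the remaining lengths, the 639- to 669-base genes lay between -0.27 and 0.07 on the log2 scale, and the 381-base genes tested between -1.05 and -0.45. The 411-base genes tested lay between -1.24 and 0.31. The lowest median, -1.16, was that of the 6 genes of 393 bases tested, which lay between -1.46 and -0.06, and without rat 8 this median was -0.11. The 2 genes of other lengths were at -0.90 and -0.81. None of the genes of these lengths was called. In ENSRNOG00000050478, a 411-base gene, levels were 1.06, 2.36 and 10.0 CPM in aged AL rats, 0.481, 1.39 and 3.01 in aged CR rats and 0.419, 1.65 and 2.11 in young AL rats. The 10.0 CPM was rat 8, and the groups overlapped.

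**Figure D5:**
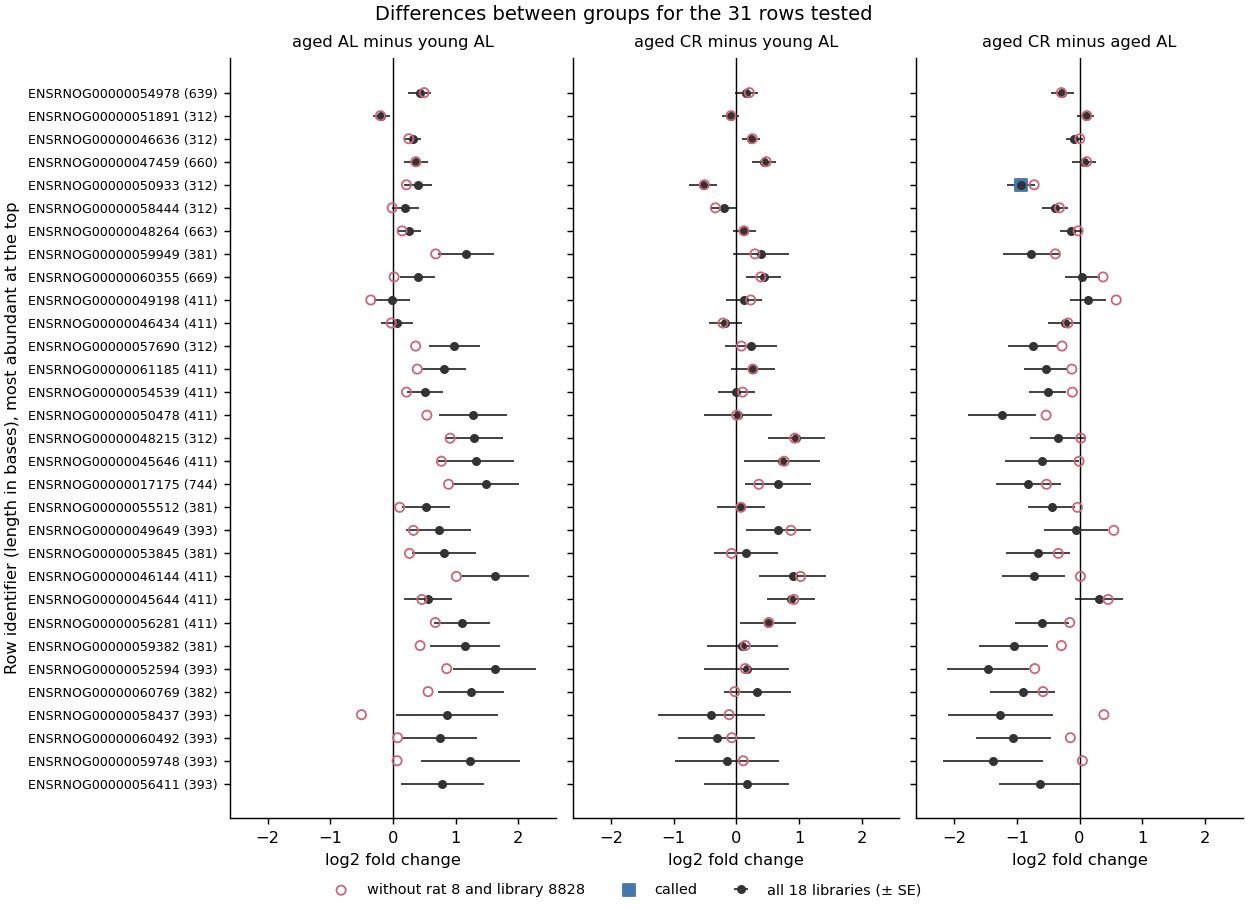
Log2 fold change (± SE, edgeR) of the 31 genes tested in the 3 comparisons, most abundant at the top; open red points are the values without rat 8 and library 8828, and the blue square marks the 1 called gene. Without these libraries most of the less abundant genes move towards 0 in the left and right panels, and the median goes from 0.79 to 0.34 and from -0.60 to -0.12.

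No gene had groups free of overlap in any comparison. Over all genes tested, 1.28% lay wholly higher and 1.11% wholly lower in aged AL than in young AL rats, 1.65% and 1.61% in aged CR than in young AL rats, and 1.15% and 0.908% in aged CR than in aged AL rats.

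Beside the 40 genes, the 17 other genes of the window that were tested had median log2 fold changes of 0.15, 0.19 and 0.04 for aged AL to young AL, aged CR to young AL and aged CR to aged AL. The 182 single-exon genes of like length elsewhere had 0.05, 0.10 and -0.00417. In the 31 genes these medians were 0.79, 0.16 and -0.60, and without rats 5, 8 and 14 and library 8828 they were 0.28, -0.03 and -0.29. The medians of the comparison genes are given with all libraries only, so the latter values have no counterpart here.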

How the data were processed

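RNA of 18 rat gastrocnemius samples was depleted of ribosomal RNA and sequenced from strand-specific libraries. The authors trimmed reads with cutadapt 1.2.1, aligned them to Rnor_6.0 with STAR 2.3.0e and counted read pairs per gene of annotation release 96 with featureCounts 1.6.4. The deposited values are whole-number counts, and the header's command sets neither strand nor multi-aligned reads. Here, counts were tested in edgeR 4.0.16 (R 4.3.3): filterByExpr, TMM scaling, 1 quasi-likelihood fit of all 18 libraries, Benjamini-Hochberg adjustment over 14646 genes. Genes were called with adjusted p-values no higher than 0.05 where the change reached 1.5-fold. DESeq2 1.42.0, other scalings, filters and left-out libraries were alternatives. Sums, medians and class values are descriptions. Libraries held 17335401 to 27432767 counts. SE values are the absolute log2 fold change over the square root of the test's F statistic. They carry counting error and spread between rats. A value of 3 counts was used to mark the limit of counting.

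Genes, lists and tests were chosen with earlier results of these data known. Genes that passed the filter could be named up to the 25 with the highest mean CPM, with the 5 most counted of the rest and any called gene; ENSRNOG00000048122, ENSRNOG00000052594 and others beyond these were named after their values were seen. The plan was to name length classes only by number without a protein table; family lengths were added as background. Lists of histone supply, replication and cell type genes were not analysed here, since 0 of 32883 identifiers matched the GRCr8 gene table by identifier. No sequences are shown for the same reason. No 2 libraries of a group agreed within sampling noise (chi-square per degree of freedom at least 17.5).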

Additional observations from a re-analysis of the deposited data

Results flagged for a closer look

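The highest or lowest library stood apart from the rest of its group in 23 of 96 groups of 6 examined. The measure was the gap to the nearest library over the range of the group, above Dixon's 95% limit. At that limit independent, normally spread values would give 4.8. These groups share the same 18 libraries, so the number that chance gives here is not known. In 17 of the 23 the library was rat 8, as the highest of the aged AL group. The ratios for rat 8 were 0.845 in ENSRNOG00000059748 (3.04 CPM, next 0.557), 0.843 in ENSRNOG00000058437 and 0.838 in ENSRNOG00000057690 (10.5 CPM, next 3.11). They were 0.800 in ENSRNOG00000053845, 0.780 in ENSRNOG00000050478, 0.779 in ENSRNOG00000052594, 0.774 in ENSRNOG00000049198 and 0.766 in ENSRNOG00000060492. They were 0.752 in ENSRNOG00000060769, 0.731 in ENSRNOG00000017175, 0.730 in ENSRNOG00000059382, 0.728 in ENSRNOG00000046144 and 0.722 in ENSRNOG00000061185. The lowest of the 17 were 0.716 in ENSRNOG00000058444 (26.5 CPM, next 15.4), 0.664 in ENSRNOG00000055512, 0.650 in ENSRNOG00000054539 and 0.629 in ENSRNOG00000060355.

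Rat 7 was the lowest aged AL library in ENSRNOG00000051891, at 19.5 CPM where the next was 35.1 (ratio 0.740). Among aged CR rats, rat 14 was the highest in ENSRNOG00000045644 (0.772) and in ENSRNOG00000061185 (0.662), and library 8828 was the highest in ENSRNOG00000058444 (0.732). Among young AL rats, rat 4 was the highest in ENSRNOG00000046144 (0.748) and rat 2 in ENSRNOG00000046434 (0.737).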

How the results depend on the processing

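No paired analysis was possible because each rat belongs to 1 group and no replicate number is shared between groups. In aged AL to young AL, 0 genes were called under each alternative except DESeq2, which called 1, and in aged CR to young AL DESeq2 also called 1 and the others 0. In aged CR to aged AL the 1 called gene was lost (0 called) when only these 2 groups were fitted (adjusted p = 0.0522), with no filter (0.0506, both edgeR), without rat 8 and library 8828 (0.0621) and without rats 5, 8 and 14 and library 8828. Leaving out single libraries gave 0 to 1 called gene there. The counts at an unadjusted p under 0.05 were added as a measure, and the fit without 4 libraries as an alternative, after seeing the data. For aged AL to young AL this count was 6 (of 16 genes) with 10 counts in every library, 2 without rat 8 and library 8828 and 2 without the 4 libraries, and 3 to 17 when single libraries were left out. For aged CR to young AL it was 6 by DESeq2, 5 in the 2 groups alone, 6 with no filter, 5 without rat 8 and library 8828, 0 without the 4 libraries and 0 to 5 with single libraries left out (0 without rat 5, 1 without rat 1, rat 3, rat 6, rat 14 or library 8826, and 5 without rat 8). For aged CR to aged AL it was 1 with 10 counts in every library and 1 to 8 with single libraries left out (1 without rat 13, rat 15 or library 8827, 5 without rat 9, rat 10, rat 12 or library 8828, 7 without rat 7 and 8 without rat 14).

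With single libraries left out, the median log2 fold change lay between 0.33 and 0.96 for aged AL to young AL, 0.11 and 0.35 for aged CR to young AL, and -0.78 and -0.11 for aged CR to aged AL. The summed level lay between 0.29 and 0.47, 0.059 and 0.18, and -0.37 and -0.18 in the same order. No scaling tried in the fits moved the median of all genes by over 0.1 on the log2 scale.

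Reversals of sign were limited to genes not called. In aged AL to young AL, ENSRNOG00000049198 turned positive at 0.00115 in the 2 groups alone, 0.049 with upper-quartile factors, 0.012 with no filter and 0.019 with 10 counts in every library, and ranged from -0.35 to 0.10 with single libraries left out. Without rat 8 and library 8828, the log2 fold change of aged AL to young AL was -0.027 in ENSRNOG00000046434 (-0.028 to 0.32 with single libraries left out), -0.013 in ENSRNOG00000058444 (-0.013 to 0.33) and -0.50 in ENSRNOG00000058437 (-0.50 to 1.28). Under the same setting that of aged CR to young AL was -0.076 in ENSRNOG00000053845 (-0.14 to 0.36), 0.11 in ENSRNOG00000059748 (-0.41 to 0.47) and -0.023 in ENSRNOG00000060769 (-0.028 to 0.50). That of aged CR to aged AL was 0.015 in ENSRNOG00000046144, 0.021 in ENSRNOG00000048215 (-0.53 to 0.057), 0.55 in ENSRNOG00000049649 (-0.29 to 0.35), 0.00413 in ENSRNOG00000046636, 0.39 in ENSRNOG00000058437 (-1.72 to 0.10) and 0.046 in ENSRNOG00000059748. Genes that turned only with a single library left out were, for aged CR to aged AL, ENSRNOG00000047459 (-0.041 to 0.29), ENSRNOG00000051891 (-0.025 to 0.15) and ENSRNOG00000060355 (-0.082 to 0.43). For aged CR to young AL they were ENSRNOG00000046434 (-0.27 to 0.081), ENSRNOG00000049198 (-0.00485 to 0.23), ENSRNOG00000050478 (-0.32 to 0.21), ENSRNOG00000052594 (-0.12 to 0.42), ENSRNOG00000054539 (-0.15 to 0.11), ENSRNOG00000055512 (-0.057 to 0.22), ENSRNOG00000056411 (-0.38 to 0.71), ENSRNOG00000058437 (-0.85 to 0.024) and ENSRNOG00000059382 (-0.23 to 0.35). The cause of these changes was not tested.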
